A study of Homo sapiens with 5 samples.

Results

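Peaks of ACTL6A, BRG1 and NRF2 were located over 10 human glutathione transferase genes, out of 19689 genes with a protein-coding transcript in the annotation. The genes were GSTP1, GSTA1, GSTA4, GSTM3, GSTM4, GSTO1, GSTK1, MGST1, MGST2 and MGST3, chosen by name, and a peak was assigned to a gene when it touched the gene or the 10 kb on either side of it. Every peak list came from untreated cells of SNU638, a human line established from gastric cancer, profiled by CUT&Tag, where an antibody directs the Tn5 transposase to cut and tag the DNA next to its target. The antibodies to ACTL6A, BRG1 and NRF2 had 1 library each, and control IgG had 2, here IgG 1 and IgG 2. No antibody was replicated, so the values below are descriptions without a test. The share of all genes that met the same criterion stands beside the main counts.

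Glutathione transferases join the thiol of glutathione to electrophiles, which makes drugs, carcinogens and products of lipid peroxidation more soluble and easier to export. The cytosolic enzymes fall into classes such as alpha, mu, pi and omega, the kappa enzyme works in mitochondria and peroxisomes, and an unrelated family of small membrane proteins holds MGST1, MGST2 and MGST3. Many of these genes are textbook targets of NRF2, a transcription factor stabilized by oxidants and electrophiles that binds the antioxidant response element (ARE) as a dimer with a small MAF protein. BRG1 is the ATPase of SWI/SNF chromatin remodelling complexes, and ACTL6A (BAF53A) is an actin-related subunit of those complexes.

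The sequences on which the description turns are shown first, all on GRCh38 (hg38), plus strand. Matches on either strand to TGACNNNGC, the ARE core, are in capitals in the sequences of GSTP1, GSTO1 and MGST1. The GSTP1 run, chr11:67583574-67583764, opens the BRG1 peak at that gene's start. The GSTO1 run, chr10:104254544-104254739, opens the BRG1 peak at the GSTO1 start and overlaps an NRF2 peak. The MGST1 run, chr12:16348907-16349206, is the end of an NRF2 peak in intron 1 that had no partner from the other antibodies, and its match reads as the ARE core on the minus strand. The MGST3 run, chr1:165631989-165632073, starts a BRG1 peak at an alternative start, with a match to the AP-1 motif TGANTCA in capitals. The GSTA4 run, chr6:52995616-52995909, is the whole ACTL6A peak upstream of GSTA4, and its capitals mark the bases that belong to RN7SK, the gene of the small nuclear RNA that holds the elongation factor P-TEFb inactive.
GSTP1: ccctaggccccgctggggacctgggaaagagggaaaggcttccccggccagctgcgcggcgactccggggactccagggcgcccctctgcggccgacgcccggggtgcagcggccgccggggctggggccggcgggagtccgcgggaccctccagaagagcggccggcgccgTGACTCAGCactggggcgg
GSTO1: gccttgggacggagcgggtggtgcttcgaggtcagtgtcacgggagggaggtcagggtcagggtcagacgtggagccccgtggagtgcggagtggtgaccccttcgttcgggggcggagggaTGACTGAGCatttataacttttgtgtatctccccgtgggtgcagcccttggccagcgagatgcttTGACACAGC
MGST1: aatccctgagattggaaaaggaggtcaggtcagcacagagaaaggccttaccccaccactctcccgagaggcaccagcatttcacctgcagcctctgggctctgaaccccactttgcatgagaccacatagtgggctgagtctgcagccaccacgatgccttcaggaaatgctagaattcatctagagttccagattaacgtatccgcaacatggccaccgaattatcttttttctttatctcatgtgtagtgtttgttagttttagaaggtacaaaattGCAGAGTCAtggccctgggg
MGST3: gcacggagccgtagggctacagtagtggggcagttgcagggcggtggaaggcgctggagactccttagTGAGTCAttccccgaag
GSTA4: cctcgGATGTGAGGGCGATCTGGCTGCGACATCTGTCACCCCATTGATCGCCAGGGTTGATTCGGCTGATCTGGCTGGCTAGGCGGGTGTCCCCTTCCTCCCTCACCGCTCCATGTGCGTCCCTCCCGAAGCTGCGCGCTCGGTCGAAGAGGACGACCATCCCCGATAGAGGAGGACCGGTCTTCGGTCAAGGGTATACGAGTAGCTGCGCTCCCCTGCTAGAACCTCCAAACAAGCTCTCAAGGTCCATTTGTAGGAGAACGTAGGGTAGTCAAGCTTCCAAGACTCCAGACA

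The lists held 23917 peaks for ACTL6A, 48793 for BRG1, 9045 for NRF2, 11 for IgG 1 and 1746 for IgG 2. The fragments that overlapped each summit were recovered as the whole number that gives the deposited fold and p-value, with a median per list of 6 for ACTL6A, 10 for BRG1 and 17 for NRF2. Peaks were ranked within their list by −log10 q, 1 being the highest. Folds, q-values and fragments were not compared between lists, because the libraries differ in depth and background. The epithelial label of the cells could be checked only through peaks at starts: BRG1 had one at all 5 epithelial genes (EPCAM, CDH1, KRT8, KRT18 and KRT19), ACTL6A at 4 and NRF2 at 0. The shares of all genes with a peak within 1 kb of a start were 65.9% for BRG1, 41.1% for ACTL6A and 29.0% for NRF2. Beside these shares, 5 genes say little about the cell type.

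In all, 36 peaks lay over the 10 genes or within 10 kb, 10 of ACTL6A, 19 of BRG1, 7 of NRF2 and 0 of either IgG library. BRG1 reached 8 of the 10 genes, all but GSTA1 and MGST1, against 82.7% of all genes. ACTL6A reached 5 genes (GSTA4, GSTM4, GSTO1, GSTK1 and MGST3), against 66.9% of all genes. NRF2 reached 4 genes (GSTA4, GSTO1, MGST1 and MGST3), against 41.1%. For IgG 1 the share of all genes was 0.0356% and for IgG 2 it was 1.67%. The windows of the 10 genes had a median length of 42059 bp, and those of all genes 47330 bp.

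Closer to the starts the counts were 3 genes for ACTL6A, 8 for BRG1 and 4 for NRF2, when a peak within 1 kb of any annotated transcription start site of the gene was asked for. The shares of all genes were 41.1% for ACTL6A, 65.9% for BRG1 and 29.0% for NRF2. With 10 genes, each of these counts lay within 2 genes of its background share, and none is read as particular to the family. GSTA4 and MGST3 had all 3 factors at a start, as did 4555 of the 19689 genes (23.1%). GSTK1 had ACTL6A and BRG1 (16.1% of all genes), GSTO1 had BRG1 and NRF2 (5.44%), and GSTP1, GSTM3, GSTM4 and MGST2 had BRG1 alone (21.2%). MGST1 had NRF2 alone, a pattern of 74 genes (0.376%). That call depends on the 1 kb limit, as the peak lay 816 bp from the nearest start. Within 250 bp of a start NRF2 was at 3 of the 10 genes, without MGST1. ACTL6A was then at 2 genes, without GSTA4, whose ACTL6A peak lay 312 bp from the nearest start. GSTA1 had none, like 6282 genes (31.9%).

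**Figure D1:**
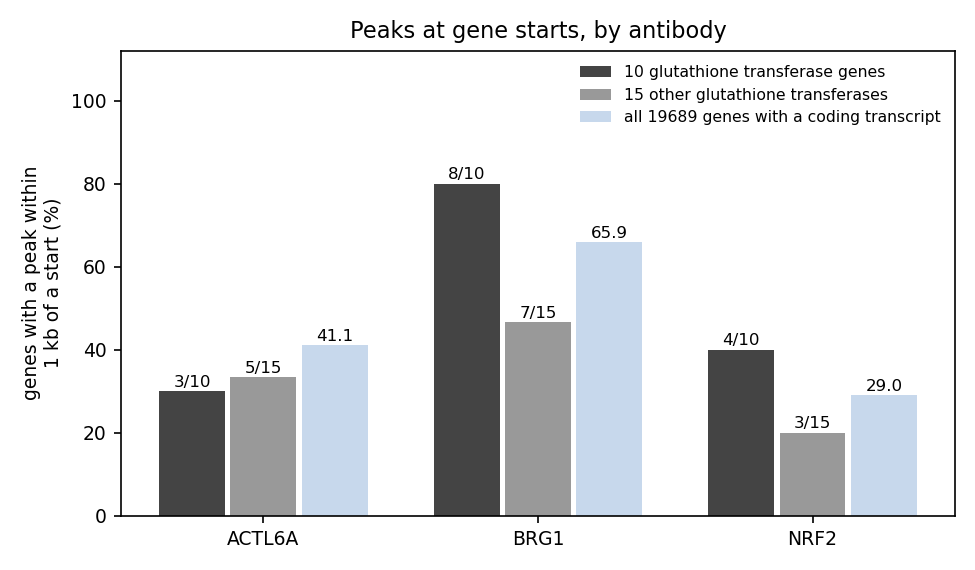
Percent of genes (vertical axis) with a peak within 1 kb of a transcription start, for each antibody, in the 10 genes described here, in 15 other glutathione transferases and in all 19689 genes. BRG1 was at 8 of the 10 starts, NRF2 at 4 and ACTL6A at 3. No error bar is drawn because each antibody had 1 library.

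**Figure D2:**
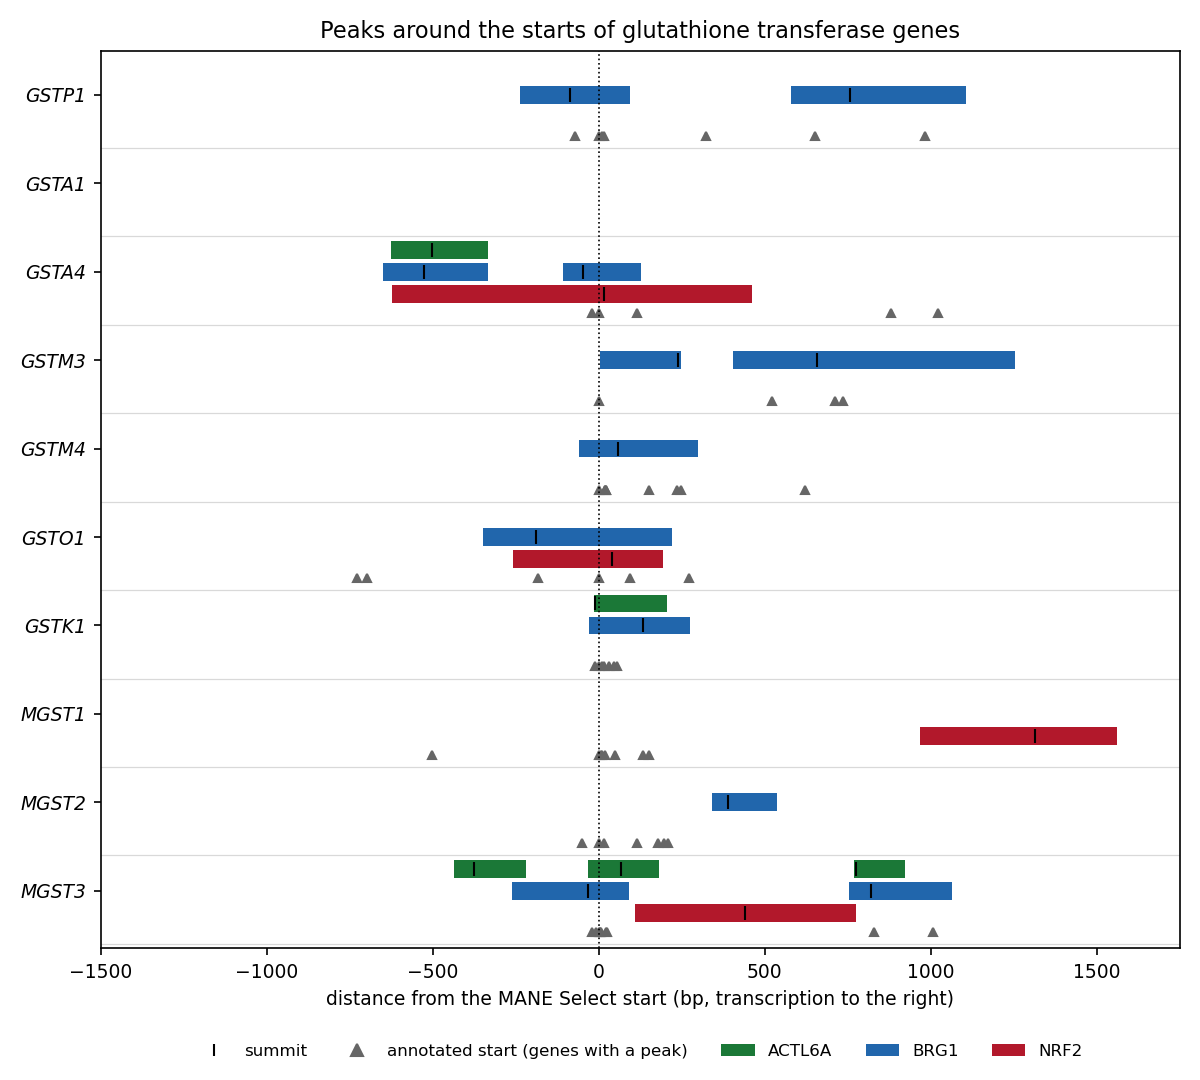
Position of each peak (bars) and its summit (ticks) relative to the start of the MANE Select transcript, in bp, with transcription running to the right and annotated starts as triangles. Peaks farther than the axis are given in the text. GSTA1 has no peak, MGST1 has an NRF2 peak without the other factors, and the NRF2 peak of MGST3 lies between 2 BRG1 peaks.

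GSTP1 encodes the pi-class enzyme, a major cytosolic form in many epithelia and tumours. It lies on the plus strand at chr11:67583742-67586656. Its start carried a BRG1 peak at chr11:67583574-67583906 with the summit 86 bp upstream of the MANE Select start, the transcript chosen as reference by RefSeq and Ensembl, and 16 bp upstream of the nearest annotated start. At that summit 40 fragments were recovered (95% exact Poisson interval 28.6 to 54.5, counting error only) where the caller expected 2.69. The caller's fold enrichment was 11.1 and the −log10 q 29.1, rank 3523 in the BRG1 list, within its highest 7.22%. It was the highest peak at GSTP1, and the other 3 BRG1 peaks ranked between 34840 and 43140 with 8 to 12 fragments. Of those, the summits of 2 lay 4304 and 6331 bp upstream of the MANE start, and the remaining one lay in exon 3, 757 bp downstream.

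Neither ACTL6A nor NRF2 had a peak in the GSTP1 window. The nearest ACTL6A peak was 22794 bp from the MANE start and the nearest NRF2 peak 45915 bp. Among the 2417 BRG1 peaks at starts that ranked at least as high, 84.8% overlapped an ACTL6A peak and 71.3% an NRF2 peak. GSTP1 thus belonged to the smaller share of these highly ranked BRG1 starts without either partner, and was the lowest ranked of the set. Over the whole BRG1 list, 9349 of 17373 peaks at starts (53.8%) overlapped neither ACTL6A nor NRF2. The ARE core printed above lies 62 bp upstream of the MANE start and 24 bp from the BRG1 summit, reads TGACTCAGC, and also matches the AP-1 motif TGANTCA, so the same letters count for both. A purine precedes it, as in the extended ARE. The peak had a GC content of 75.4%.

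GSTA1, an alpha-class enzyme abundant in liver that conjugates electrophiles and isomerizes steroids, had no peak of any antibody. The gene lies on the minus strand at chr6:52791371-52803860. From its MANE start the nearest BRG1 peak was 11631 bp away, the nearest ACTL6A peak 35731 bp and the nearest NRF2 peak 139148 bp. Its start was the most repeated of the 10: 22.3% of the 50-base words within 1 kb of it occur again within 500 kb, compared with 1.64% at GSTM4, 0.512% at GSTP1 and 0 at the other 7. Reads that map to several places were not used for peak calling, and their part in the absence of peaks was not tested. The GSTA1 promoter in RefSeq had a GC content of 41.3%, below the median of 58.7% over all 35116 promoters, and held a TATA box (TATAAA) and no ARE core.

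GSTA4, an alpha-class enzyme specialized for hydroxynonenal and related aldehydes from lipid peroxidation, had the highest ranked peak of the family and all 3 factors. It lies on the minus strand at chr6:52977948-52995304, with its MANE start at 52995284. The BRG1 peak at chr6:52995616-52995935 had 55 fragments at its summit (41.4 to 71.6) against 2.48 expected, a fold of 16.1 and rank 1057, the highest 2.17% of the list. A separate BRG1 peak at chr6:52995158-52995390 covered the start, with 34 fragments, a fold of 9.87 and rank 5181 (10.6%). ACTL6A had 1 peak, chr6:52995616-52995909, with 14 fragments (7.65 to 23.5) against 0.868 expected, a fold of 8.03 and rank 2882 (12.1%). It opened at the same base as the higher BRG1 peak, all of its 294 bp lay inside that peak, and the summits were 23 bp apart. The NRF2 peak was broad, chr6:52994822-52995908 (1087 bp), with 21 fragments (13.0 to 32.1) against 2.69 expected, a fold of 5.96 and rank 2240 (24.8%).

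The peaks at GSTA4 thus fell in 2 places. One was the start itself, where the NRF2 summit lay 16 bp inside exon 1 and the BRG1 summit 47 bp upstream of the start. The other was farther upstream, where the ACTL6A summit (502 bp) and the higher BRG1 summit (525 bp) both lay inside RN7SK, a gene of 328 bp on the opposite strand at chr6:52995621-52995948. The ACTL6A peak covered 289 bp of RN7SK (88.1%), the higher BRG1 peak 315 bp (96.0%) and the NRF2 peak 288 bp (87.8%), while the BRG1 peak on the GSTA4 start covered 0. Whether the upstream signal belongs to GSTA4 or to RN7SK cannot be told apart. The annotation holds 301 gene entries named for 7SK, most of them copies elsewhere in the genome. ACTL6A had a peak on 4 of them, BRG1 on 4 and NRF2 on 2, in each list including the 2 entries of the RN7SK locus itself, a count made after the GSTA4 values had been seen. The ARE core of GSTA4, on the minus strand, lies next to the start and not in RN7SK, 5 bp upstream of the MANE start, 21 bp from the NRF2 summit and 42 bp from the BRG1 summit on the start.

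The ARE cores inside the peaks, each with 10 bases on either side and read on the strand of the match, are shown because they let the letters be set beside the factor found there.
GSTA4, 5 bp upstream of the MANE start, in BRG1 and NRF2 peaks: ccgggaccgcTGACCTGGCgctttgtgcg
GSTM3, 829 bp downstream, in a BRG1 peak: tcagtctcttTGACCGAGCggctctaccg
GSTM3, 650 bp downstream, in the same BRG1 peak: gcgggcgcccTGACTCCGCctccgccccg
GSTO1, 222 bp upstream, in BRG1 and NRF2 peaks: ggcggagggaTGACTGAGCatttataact
GSTO1, 157 bp upstream, in BRG1 and NRF2 peaks: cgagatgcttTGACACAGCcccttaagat
GSTP1, 62 bp upstream, in a BRG1 peak: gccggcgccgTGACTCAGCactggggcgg
GSTP1, 768 bp downstream, in another BRG1 peak: cctgcgtaagTGACCATGCccgggcaagg
MGST1, 1546 bp downstream, in an NRF2 peak: cccagggccaTGACTCTGCaattttgtac
MGST3, 262 bp upstream, in an ACTL6A peak: ccgggaggtaTGACCTGGCtgggacagtt

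GSTM3 and GSTM4 are mu-class enzymes of a gene cluster on chromosome 1. GSTM3, on the minus strand at chr1:109733932-109741038, had 2 BRG1 peaks and nothing else. The higher was not at the MANE start but in its exon 2, at chr1:109739783-109740634, with the summit 656 bp downstream of the MANE start and 55 bp upstream of the nearest annotated start. It had 18 fragments (10.7 to 28.4) against 0.819 expected, a fold of 10.4 and rank 8864 (18.2%). The lower, at chr1:109740791-109741033, reached to within 5 bp of the MANE start with 7 fragments, a fold of 4.42 and rank 34598 (70.9%). Both also lie inside the annotated spans of GSTM5 and of a long non-coding RNA, whose starts are over 10 kb from the peaks. The sequence differed in the same way between these places: the higher peak had a GC content of 67.6%, 6 GC boxes (GGGCGG) and 2 ARE cores, while the RefSeq promoter at the MANE start had 41.3% and neither motif. One of the cores, TGACTCCGC, lay 6 bp from the BRG1 summit, although the NRF2 peak nearest to the MANE start was 191972 bp away.

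GSTM4, on the plus strand at chr1:109656099-109665496, had a BRG1 peak over its MANE start at chr1:109656041-109656398, with the summit in exon 1, 57 bp downstream. At the summit 13 fragments (6.92 to 22.2) stood against 1.05 expected, with a fold of 6.83 and rank 17073 (35.0%). Its ACTL6A peak lay at the far end of the window, chr1:109675005-109675159, 18939 bp from the MANE start and inside the neighbouring gene GSTM2. It rested on 3 fragments (0.619 to 8.77), with rank 19218 (80.4%), and is not a peak at the GSTM4 start. The nearest NRF2 peak to the GSTM4 start was 107033 bp away.

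GSTO1, the omega-class enzyme that uses an active-site cysteine to reduce dehydroascorbate and to remove glutathione from proteins, lies on the plus strand at chr10:104235356-104267459 with its MANE start at 104254892. Its window held the most peaks, 13 of the 36, but only 2 were at one of its own starts. BRG1 had a peak at chr10:104254544-104255113 with the summit 188 bp upstream of the MANE start and 6 bp upstream of the nearest start, 11 fragments (5.49 to 19.7) against 0.588 expected, a fold of 7.56 and rank 16117 (33.0%). NRF2 had a peak at chr10:104254635-104255085, entirely inside the BRG1 peak, with the summit in exon 1, 40 bp downstream, 13 fragments (6.92 to 22.2) against 2.03 expected, a fold of 4.62 and rank 5511 (60.9%). The summits were 228 bp apart. Both ARE cores printed above lay nearer to the BRG1 summit, at 34 and 31 bp, than to the NRF2 summit, at 262 and 197 bp.

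ACTL6A had 4 peaks in the window, but the nearest to the MANE start of GSTO1 was 11539 bp away. Of the 3361 NRF2 peaks at starts that ranked at least as high as the one at GSTO1, 78.8% overlapped an ACTL6A peak. The GSTO1 peak was the lowest ranked of that set, and over the whole NRF2 list the share was 49.8%. The ACTL6A peaks with the highest ranks of the family were in this window but at the neighbours, at rank 1660 over a start of CFAP43, a cilia and flagella gene, and at rank 1836 over a start of GSTO2, the sister omega gene. At CFAP43 the BRG1 peak had rank 1886 with 39 fragments, and the NRF2 peak rank 2844 with 16. At GSTO2 all 3 factors had peaks at 2 annotated start regions. At the farther of these the BRG1 and NRF2 summits fell on the same base, and NRF2 had rank 2579, above its rank at GSTO1 itself. Without the peaks at CFAP43 and GSTO2 the GSTO1 window kept 1 weak ACTL6A peak of 3 fragments, 2 BRG1 peaks and 1 NRF2 peak.

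GSTK1 encodes the kappa-class enzyme of mitochondria and peroxisomes, and lies on the plus strand at chr7:143244093-143270854 with its MANE start at 143263441. ACTL6A had a peak at chr7:143263426-143263648, with the summit 11 bp upstream of the MANE start, 5 fragments (1.62 to 11.7) against 0.307 expected, a fold of 4.59 and rank 12312 (51.5%). The BRG1 peak, chr7:143263411-143263715, contained all 223 bp of it, with the summit in exon 1, 133 bp downstream, 11 fragments, a fold of 7.63 and rank 15934 (32.7%). The summits of these peaks, from separate libraries, were 144 bp apart. The nearest NRF2 peak was 60004 bp away. Of the 6097 ACTL6A peaks at starts ranked at least as high, 53.7% overlapped NRF2, beside 20.0% of the whole ACTL6A list. The GSTK1 peak was the lowest of that set, which includes much higher ranked peaks, so the absence of NRF2 is not read as unusual. Both GSTK1 peaks also lie inside the span of the long non-coding RNA gene TMEM139-AS1, whose nearest start is over 10 kb away. Neither GSTK1 peak held an ARE core, and the window held 13 outside peaks.

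MGST1, a trimeric enzyme of the endoplasmic reticulum and outer mitochondrial membrane that conjugates electrophiles and reduces lipid hydroperoxides, had NRF2 without BRG1, where GSTP1 had BRG1 without NRF2. It lies on the plus strand at chr12:16347142-16609259, the longest of the 10 genes at 262118 bp. NRF2 had a peak in intron 1 at chr12:16348613-16349206, 816 bp from the nearest annotated start and with the summit 1314 bp downstream of the MANE start. It had 21 fragments (13.0 to 32.1) against 3.11 expected, a fold of 5.35 and rank 2676, the highest 29.6% of the NRF2 list. From the MANE start the nearest BRG1 peak was 358695 bp away and the nearest ACTL6A peak 255813 bp, and from the gene's nearer end they were 330630 bp and 31618 bp away.

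Of the 1544 NRF2 peaks at starts that ranked at least as high as the one at MGST1, 99.3% overlapped a BRG1 peak and 87.1% an ACTL6A peak. The MGST1 peak was the lowest ranked of that set and counts as at a start only through the 1 kb limit. Over the whole NRF2 list, 66.2% of peaks overlapped BRG1, and 273 of 4911 peaks at starts (5.56%) overlapped neither BRG1 nor ACTL6A. The MGST1 peak also differed from the other NRF2 peaks of the family in sequence, with a GC content of 45.5% against 55.6 to 71.3%. Its ARE core, TGACTCTGC on the minus strand with a purine before it, lies 232 bp from the summit, close to the end of the peak. The MGST1 window held 69 ARE cores in all, of which this was the one inside a peak.

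MGST2, a membrane enzyme that can make cysteinyl leukotrienes, had the weakest peak at a start. It lies on the plus strand at chr4:139665768-139740745. The BRG1 peak at chr4:139666161-139666357, in intron 1 with the summit 389 bp downstream of the MANE start, rested on 3 fragments (0.619 to 8.77) against 0.271 expected, with a −log10 q of 1.40 and rank 45106 (92.4%). Another BRG1 peak, 9056 bp upstream, had 5 fragments and rank 43302 (88.7%). The nearest ACTL6A peak was 25747 bp from the gene and the nearest NRF2 peak 109628 bp. The presence of BRG1 at MGST2 depends on peaks close to the caller's threshold.

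MGST3, a membrane enzyme with glutathione-dependent peroxidase activity, lies on the plus strand at chr1:165631213-165661796. Its annotated starts lie around 165631234 (MANE), at 165632063 and 165632240, and from 165645661 on. BRG1 had a peak at each of the first 2 groups, and no list had one at the starts from 165645661 on. The first peak, chr1:165630974-165631325, had 17 fragments (9.90 to 27.2) against 1.39 expected and rank 13467 (27.6%). The second, chr1:165631989-165632297, had 21 fragments (13.0 to 32.1) against 1.41 expected and rank 9351 (19.2%). The summits were 32 bp upstream of the MANE start and 10 bp upstream of the downstream start, where the AP-1 match printed above is found. ACTL6A had 3 peaks here, 376 bp upstream, 66 bp downstream and 775 bp downstream of the MANE start by their summits, with 13, 9 and 8 fragments and ranks 3462 (14.5%), 8229 (34.4%) and 11426 (47.8%).

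The NRF2 peak of MGST3, chr1:165631344-165632010, filled the stretch between the BRG1 peaks. Its summit lay in intron 1, 440 bp downstream of the MANE start, with 19 fragments (11.4 to 29.7) against 2.72 expected, a fold of 5.38 and rank 2968 (32.8%). It shared 22 bp with the downstream BRG1 peak and none with the upstream one, and its summit was 379 bp from the nearer BRG1 summit. With ACTL6A it shared 73 bp of the middle peak and 8 bp of the downstream one. GSTA4 and MGST3 thus had the same 3 factors within 1 kb of a start, in different layouts. At GSTA4 the NRF2 peak covered all of the BRG1 peak on the start, with the summits 63 bp apart. At MGST3 the NRF2 peak lay between the BRG1 peaks. The ACTL6A peak counted for GSTA4 was the one over RN7SK, and whether it belongs to GSTA4 or to RN7SK cannot be told apart.

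**Figure D3:**
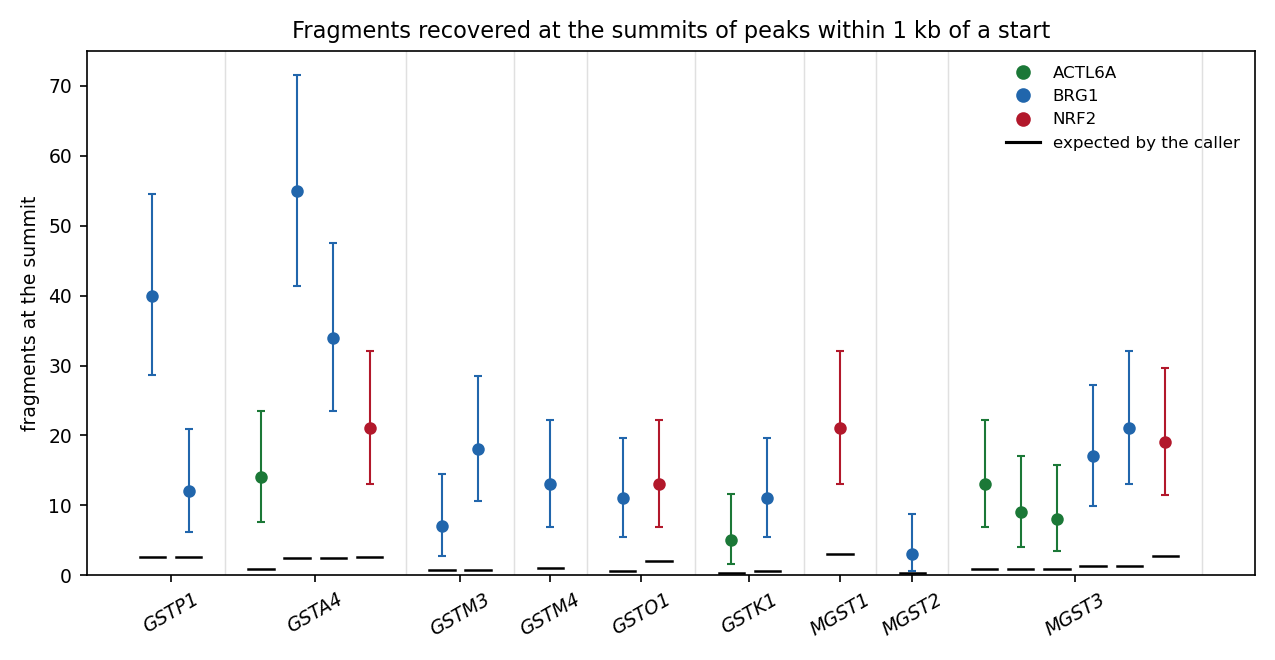
Fragments at the summit (vertical axis) of each peak within 1 kb of a start, by gene and coloured by antibody, with 95% exact Poisson intervals that cover counting error only. Black bars are the numbers expected by the caller. The BRG1 peaks of GSTA4 (55 and 34 fragments) and GSTP1 (40) stand highest, and the MGST2 peak rests on 3 fragments. Heights of different antibodies come from libraries of different depth.

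**Figure D4:**
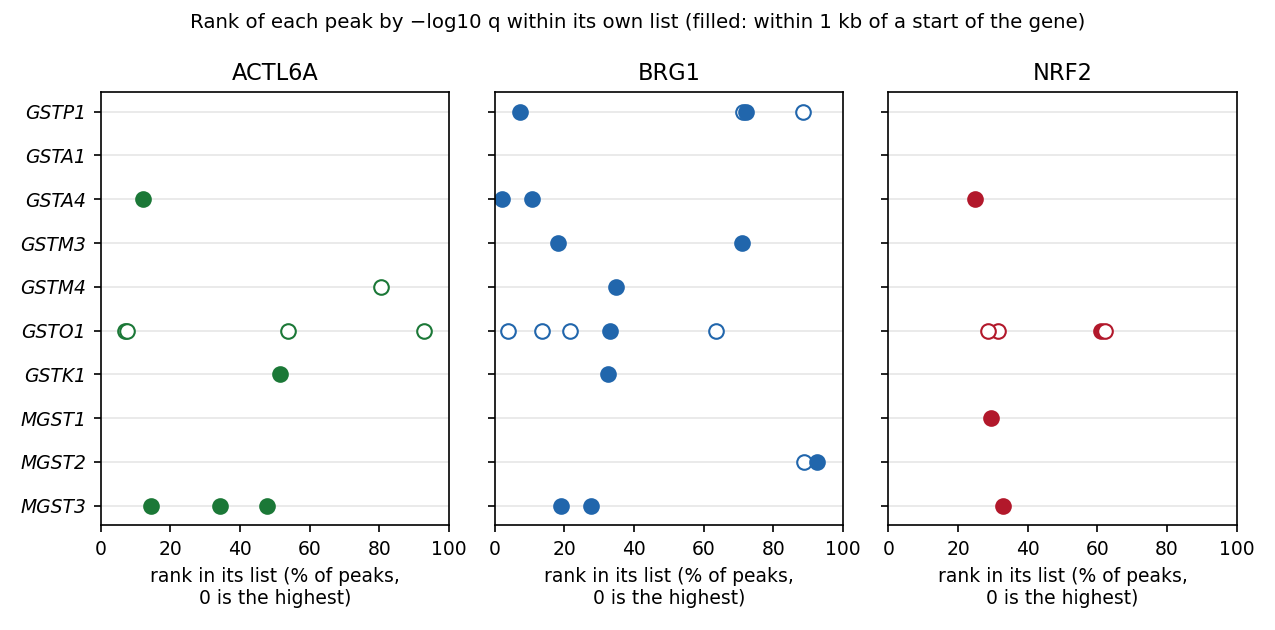
Rank of each peak by −log10 q within its own list, as a percent of all peaks of that list (horizontal axis, 0 the highest), for each gene. Filled points lie within 1 kb of a start of the gene and open points elsewhere in the window. BRG1 ranks run from 2.17% at GSTA4 to 92.4% at MGST2, and NRF2 ranks from 24.8% to 62.1%.

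Ranks spread widely within the family. The 10 ACTL6A peaks ran from 6.94% to 92.9% of their list with a median of 41.1%, the 19 BRG1 peaks from 2.17% to 92.4% with a median of 32.7%, and the 7 NRF2 peaks from 24.8% to 62.1% with a median of 31.4%. All 36 had a whole number of fragments, with a median of 8.5 for ACTL6A, 13 for BRG1 and 16 for NRF2. Within 1 kb of a start of their gene lay 5 of the 10 ACTL6A peaks, 12 of the 19 BRG1 peaks and 4 of the 7 NRF2 peaks.

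Where ACTL6A was found it mostly lay on BRG1. Of the 10 ACTL6A peaks 8 overlapped BRG1 by 1 bp or more, beside 49.8% of the whole ACTL6A list (exact 95% interval 49.1 to 50.4%). In the other direction 7 of the 19 BRG1 peaks overlapped ACTL6A, beside 24.1% of the list. Of the 7 NRF2 peaks 6 overlapped BRG1 and 5 overlapped ACTL6A, beside 66.2% and 49.8% of the NRF2 list. The NRF2 peak outside BRG1 was the one at MGST1. These whole-list shares include peaks far from genes. At starts alone, 1275 of 8048 ACTL6A peaks (15.8%) overlapped neither BRG1 nor NRF2, so 8 of 10 is not read as particular to the family. Several of the overlaps at GSTO1 were at its neighbours' starts, and the overlap of ACTL6A with BRG1 at GSTA4 lay over RN7SK.

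The ARE core lay within 100 bp of 6 of the 19 BRG1 summits, 1 of the 7 NRF2 summits (GSTA4) and 0 of the 10 ACTL6A summits, beside 11.5%, 9.66% and 9.88% of all summits in those lists. The BRG1 summits were those of the GSTP1 peaks at the gene's start and in exon 3, the peak on the GSTA4 start and the higher GSTM3 peak. The others were the peak on the GSTO1 start and the MGST2 peak in intron 1, where the core lay outside the peak itself. All of these peaks lay within 1 kb of a start, while the list shares cover all summits. The share for summits at starts is not given, so no excess is read from these counts. In the RefSeq promoters (250 bases before to 50 after a start on GRCh38.p14), found for 9 of the 10 genes, the ARE core was present for GSTP1, GSTA4, GSTO1 and MGST1, beside 13.3% of all 35116 promoters. The extended ARE was present for GSTO1, GSTP1 and MGST1, beside 6.88%. These counts are of genes and the shares of promoters: a gene counted when any of its promoters had a match, and MGST1 had 3 promoters. At MGST1 the promoter with these letters belongs to another of its starts and lay outside the NRF2 peak. A match is a description of letters and not of binding.

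Among the 17 other glutathione transferases listed for comparison, 15 could be placed, and NRF2 had a peak at the start of 3 of them (GSTO2, GSTZ1 and GSTT2B). ACTL6A was at 5 (GSTA5, GSTCD, GSTO2, GSTZ1 and LTC4S) and BRG1 at 7, the same 5 with GSTT2B and PTGES. GSTO2, a dehydroascorbate reductase, and GSTZ1, the zeta-class enzyme of tyrosine breakdown, had all 3 factors. No IgG peak lay within 10 kb of any of the 15. Against 41.1%, 65.9% and 29.0% of all genes, these counts were 5, 7 and 3 of 15.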

How the data were processed

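CUT&Tag libraries from untreated SNU638 cells were grouped by the antibody named in the labels. The authors mapped paired-end reads to hg38 with BWA and called peaks per library with MACS2 from uniquely mapped reads at a q-value below 0.05. The submitters' processing notes also name fastp 0.23.0, and the control given to the caller is not given in the sources used here. Each deposited peak has a score, a fold enrichment (a ratio), a −log10 p-value, a −log10 q-value and the offset of its summit.

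The 10 genes and the comparison lists were chosen with earlier results of these data known. All 10 were named whatever their values, and other glutathione transferases only where a peak lay at a start or a peak of the 10 genes lay inside them. Positions were set against GENCODE release 44, and a peak was at a start within 1 kb of the 5′ end of any transcript of the gene. Fragment numbers were taken where a whole number gave the −log10 p-value within 0.001. Motifs were searched in 200 bp around each summit, on both strands. A count over markers of other cell types is not reported here. The routines were tested on simulated data. The tools were pandas 2.3.3, NumPy 2.4.6 and SciPy 1.17.1 in Python 3.11.15, with matplotlib 3.10.9 for the figures. Alternatives were a stricter q-value, the highest peaks alone, other windows, starts, overlaps and motifs, and peaks shared with IgG left out.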

Additional observations from a re-analysis of the deposited data

How the results depend on the processing

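Of 63 values of the ACTL6A, BRG1 and NRF2 counts recomputed under alternatives, 36 stayed within 1.5 times the reported value. The median fragments were not recomputed. With a −log10 q of at least 5, ACTL6A peaks fell from 10 to 4, ACTL6A genes from 5 to 3, BRG1 peaks from 19 to 12, ACTL6A peaks on BRG1 from 8 to 4 and NRF2 peaks on ACTL6A from 5 to 2. With the highest 5000 peaks of each list, these were 4 ACTL6A peaks over 3 genes and 3 BRG1 peaks over 3 genes with 2 at a start, and 2 overlaps each for ACTL6A on BRG1, NRF2 on BRG1 and NRF2 on ACTL6A. These thresholds keep fewer peaks by construction. Over the genes alone there were 4 ACTL6A peaks at 3 genes, 12 BRG1 peaks and 4 NRF2 peaks. With 50 kb to each side there were 28 ACTL6A peaks over all 10 genes, 46 BRG1 peaks, and 1 IgG peak near 1 gene, GSTP1. A wider window takes in more peaks by construction, and 66.9% of all genes already had an ACTL6A peak within 10 kb. The shares of all genes under these alternatives are not given, so no such gene count is read as particular to the family. When both peaks had to share 50% of their length, 5 ACTL6A peaks lay on BRG1 and 1 NRF2 peak on ACTL6A. With TGANNNNGC, 2 ACTL6A and 4 NRF2 summits had a match, against 0 and 1 with the ARE core. This looser motif lay at 32.9% of all ACTL6A and 31.4% of all NRF2 summits. Over whole peaks 1 ACTL6A and 3 NRF2 peaks held the core, beside 11.9% and 22.7% of all peaks in those lists. The extended ARE lay at 0 NRF2 summits, beside 4.47% of the list.

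Leaving out peaks shared with IgG removed 0 of the 36 peaks, as none overlapped either IgG library. That setting says nothing of stability, and its values are not among the 63. Sharing was uncommon in the whole lists too: IgG 2 touched 11.2% of the NRF2 list, 1.74% for ACTL6A and 0.693% for BRG1. IgG 1 touched 0.0663% of the NRF2 list and less of the others. Beside these shares, an overlap of 0 is not read as particular to the 10 genes. Counting the starts of protein-coding transcripts alone, an alternative chosen after seeing the data, left 3, 8 and 4 genes. No paired analysis was possible because the antibodies share no numbered replicates. Depth limits what the lists show: the peaks of MGST2 in intron 1 and of ACTL6A at GSTM4 rest on 3 fragments each, and a gene without a peak is a gene where none passed the caller's threshold.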
